A study of Rattus norvegicus with 48 samples.

Results

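The change over the late course in exposed lungs was measured in 16 of the 48 lung RNA libraries of this rat study, 8 taken at day 27 and 8 at day 7 from rats that had inhaled dust and diesel particles. The libraries were chosen by their labels alone. All animals were healthy male Sprague-Dawley rats, an outbred laboratory stock, of 200 to 250 g, and their age is not given in the labels. The exposed rats, in both groups, had breathed 30 mg/m3 fracking sand dust, quartz-rich dust from the proppant sand used in hydraulic fracturing, together with 1 mg/m3 diesel exhaust particles, for 6 hours a day on 4 days in whole-body chambers. The air rats, 8 at day 27 and 8 at day 7, had breathed filtered air on the same schedule and were treated alike otherwise, as far as the labels say, and they give the change over the same interval without the particles. Each library is a separate animal number, so no animal was measured at both days, and the rats were housed in pairs that the labels do not identify. RNA came from a piece of whole lung. Fewer cells of a type and less RNA per cell therefore cannot be told apart.

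Lung tissue of young rats is still being remodelled. Fibroblasts and smooth muscle cells deposit fibrillar collagens and the elastic fibres that let the alveolar wall recoil, while endothelial and epithelial cells share a basement membrane of type IV collagen, laminins and nidogens, and dividing cells of all these kinds carry the transcripts of mitosis. Inhaled particles act on another layer: aromatic compounds on soot bind the aryl hydrocarbon receptor and induce Cyp1a1, oxidants activate NRF2 and its detoxifying enzymes, and epithelium and macrophages release chemokines that draw in leukocytes. A comparison of day 27 with day 7 in exposed animals can hold both kinds of change, and the air animals went through the same days without the particles.

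Libraries are called by their names in the labels, in which the middle number is the animal. Levels are given in CPM, the count relative to the library total, scaled by the trimmed mean of M values, and changes as the log2 fold change of day 27 over day 7 with its standard error (SE), so that a pair of values such as the one in brackets after a gene name is the log2 fold change ± SE over 8 libraries a day. Exposed libraries held 9445687 to 13382131 counts at day 27, against 10226230 to 13572215 at day 7, and the mean totals differed by -3.42% (exact two-sided permutation p = 0.489). The lung markers were present in every exposed library. Surfactant protein C (Sftpc) was at 7837 to 9353 CPM with a median of 8544 at day 27, against 6468 to 8184 CPM with a median of 7193 at day 7. The type 1 cell receptor Ager was at 2094 to 2419 CPM with a median of 2303, against 1793 to 2075 CPM with a median of 2023. The exposed day 7 libraries FSDE_FSDE_275_07 and FSDE_FSDE_278_07 lay closer together than any other exposed pair, at 1.51 times counting noise, against 2.603 in the next closest of 56 pairs, and 1 pair in each air group was as close, at up to 1.67. All libraries stayed in the test, which was repeated with the counts of FSDE_FSDE_275_07 and FSDE_FSDE_278_07 summed. The mean log2 CPM of the cytosolic ribosomal protein genes ran from 7.61 to 7.88 in exposed libraries at day 27, against 7.44 to 7.56 at day 7, without overlap. In air it ran from 7.66 to 8.18 at day 27, against 7.44 to 7.64 at day 7. Each day has its own deposited table and the labels name no sequencing batch, so the day, the age of the animals and any difference between tables cannot be told apart.

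In exposed lungs 1739 of 14631 genes changed between day 7 and day 27, 893 of them higher and 846 lower at day 27 (edgeR, adjusted p under 0.05), which is 11.9% of the genes tested, 6.1% higher and 5.78% lower. Most of these changes were small, with a median size of 0.25 on the log2 scale over the called genes. At least 1.5-fold changes were 70 rises and 188 falls. The groups of 8 did not overlap for 314 genes, or 2.15% of those tested. A lone call in a short gene list is near the share of all genes called, 6.1% higher or 5.78% lower. With libraries FSDE_FSDE_275_07 and FSDE_FSDE_278_07 summed 1488 genes were called, 741 higher and 747 lower. Without exposed day 27 library FSDE_FSDE_290_27 the count was 1221, and with the ribosomal protein level as a covariate, chosen after seeing the data, it was 572, of which 350 were among the 1739. Of 81 named genes called in exposed lungs 37 remained called with that covariate and 44 did not. Among the 81, Rpl19 and Rpl23a belong to the list that the covariate averages, so their values under it are not independent of it. The ribosomal protein level did not overlap between the exposed days, so its part in these results cannot be told apart from that of the day.

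The same days separated the air lungs as well. Air lungs had 5785 genes called (39.5% of those tested), 2891 higher and 2894 lower at day 27 (19.8% of those tested in each direction). The air count was 66 under the ribosomal covariate, of which 19 were higher and 47 lower. Of the 1739 genes called in exposed lungs, 1674 (96.3%) had the same sign in air, against 75.2% of all genes tested. In both, with the same sign, 1313 were called, which is 75.5% of the exposed calls and 22.7% of the air calls, 2 were called with opposite signs and 424 were not called in air. Across all genes tested the log2 fold changes in exposed and in air lungs had a Pearson correlation of 0.49 and a Spearman correlation of 0.60, a description over genes, which share tables and libraries. Genes called in air had a median change of 0.28 in size in air and of 0.13 in exposed lungs, and 91.2% of them had the same sign in exposed lungs. Genes called in exposed lungs had a median change of 0.25 in size in exposed lungs and of 0.27 in air. Choosing genes by 1 contrast favours a larger size in that contrast, so neither pair of medians compares the treatments. The test of the exposed change against the air change called 0 genes with edgeR, where the smallest adjusted p was 0.0619 and 2197 genes had an unadjusted p under 0.05, and 0 with limma-voom, while DESeq2 called 147. A p above the threshold does not show that the changes were equal. With edgeR, 119 genes were called without air day 27 library AIR_FSDE_282_27, 21 without exposed day 27 library FSDE_FSDE_290_27, 16 without air day 27 library AIR_FSDE_281_27 and 1 each without air day 7 library AIR_FSDE_266_07 and exposed day 7 library FSDE_FSDE_276_07.

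**Figure D1:**
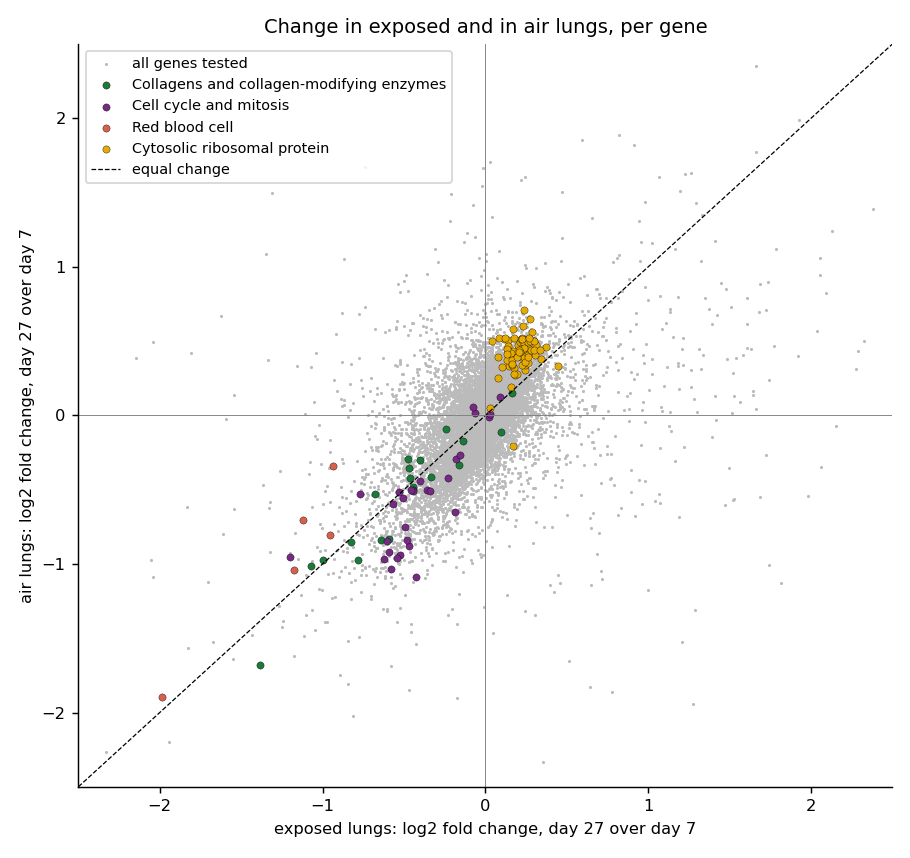
Log2 fold change of day 27 over day 7 for every gene tested, in exposed lungs on the horizontal axis and in air lungs on the vertical axis, with the collagen, cell cycle, red blood cell and ribosomal protein lists in colour and the dashed line marking equal change. Most collagen and red blood cell genes lie near the line at lower left, most ribosomal protein genes lie above it at upper right, and 20 genes fall outside the axis limits of 2.5.

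Genes of the extracellular matrix fell in exposed lungs. Of 20 collagens and collagen-modifying enzymes tested, 15 fell and 0 rose, with a median log2 fold change of -0.47 against 0.0051 over all genes tested. Col1a1, the main chain of type I collagen, stood at 351.6 to 505.8 CPM with a median of 429.2 in exposed lungs at day 27, against 696.9 to 1015 CPM with a median of 912.5 at day 7, a log2 fold change of -1.07 ± 0.084 (adjusted p = 2.08e-10). Its 8 day 27 libraries all lay below its 8 day 7 libraries, and the air libraries were as far apart, at 351.4 to 502.5 CPM with a median of 436.99 at day 27, against 753.02 to 1054 CPM with a median of 909.1 at day 7 (log2 fold change -1.02 ± 0.084). Type III collagen, Col3a1, which is laid down with type I, had the smallest adjusted p of all genes, 7.89e-12, with 1919 to 2364 CPM with a median of 2127 at day 27 and 3141 to 4163 CPM with a median of 3952 at day 7 (-0.83 ± 0.057). Col1a2 (-0.998 ± 0.10), the type V chain Col5a1 (-0.64 ± 0.065), the type VI chain Col6a3 (-0.59 ± 0.072) and the cross-linking enzymes Lox (-0.47 ± 0.085) and Loxl2 (-0.78 ± 0.11) also fell. Members that did not pass were Col15a1, Serpinh1, P4ha1, P4ha2 and P4ha3. Col15a1, a collagen of basement membrane zones, was listed at 0 in exposed day 27 library FSDE_FSDE_290_27 and at 0 to 32.8 CPM with a median of 17.5 over that group, against 39.1 to 67.5 CPM with a median of 43.05 at day 7 (-1.38 ± 0.56, adjusted p = 0.101). In air 16 of the 20 fell and 0 rose, with a median of -0.45.

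Elastic fibre genes fell with the collagens. Of 11 tested, 7 fell and 0 rose in exposed lungs, with a median log2 fold change of -0.40. Elastin (Eln), the rubber-like core of the fibre, was at 610.7 to 910.9 CPM with a median of 738.8 in exposed lungs at day 27, against 1428 to 1738 CPM with a median of 1648 at day 7, a log2 fold change of -1.15 ± 0.095 (adjusted p = 6.4e-10). Fibrillin-1 (Fbn1), the microfibril on which elastin is laid, was at 264.3 to 320.4 CPM with a median of 298.1, against 490.1 to 572.4 CPM with a median of 507.01 (-0.82 ± 0.06, adjusted p = 3.24e-11). Neither gene's exposed groups overlapped, and neither did the air groups, with log2 fold changes of -0.97 ± 0.095 for Eln and -0.98 ± 0.06 for Fbn1. The latent TGF-beta binding protein Ltbp2 (-0.56 ± 0.066), the assembly protein Fbln5 (-0.40 ± 0.07) and the microfibril protein Mfap2 (-0.64 ± 0.18) fell too. Mfap4, which binds elastin and collagen, had a log2 fold change of -0.78 ± 0.27 in exposed lungs (adjusted p = 0.0576) and of 0.68 ± 0.27 in air (adjusted p = 0.0457), and the difference of these changes did not pass (adjusted p = 0.136). In air 5 elastic fibre genes fell and 1 rose.

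Of 14 basement membrane genes tested, 10 fell and 0 rose in exposed lungs, with a median of -0.38, and 12 fell in air, with a median of -0.51. Col4a1, the chain that forms the sheet of type IV collagen, was at 1334 to 1579 CPM with a median of 1469 in exposed lungs at day 27, against 1909 to 2325 CPM with a median of 2119.5 at day 7 (-0.54 ± 0.046, adjusted p = 6.4e-10). Nid1, which links laminin to that sheet, was at 256.3 to 328.8 CPM with a median of 302.9, against 395.7 to 468.1 CPM with a median of 443.1 (-0.56 ± 0.054, adjusted p = 1.86e-08). The groups did not overlap for either. The epithelial laminin chains Lama3 (-0.15 ± 0.06) and Lamb3 (-0.0055 ± 0.084) did not pass, while the broadly expressed chains Lama4 (-0.43 ± 0.053), Lamb1 (-0.34 ± 0.041) and Lamc1 (-0.43 ± 0.047) fell.

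Among matrix proteases and their inhibitors 5 of 15 fell and 0 rose in exposed lungs, with a median of -0.14. These were the membrane-bound collagenase activator Mmp14 (-0.43 ± 0.048, adjusted p = 2.01e-07), the gelatinase Mmp2 (-0.38 ± 0.05), the procollagen peptidase Adamts2 (-0.57 ± 0.07, adjusted p = 9.75e-07), Adamts9 (-0.50 ± 0.092) and Adamts15 (-0.43 ± 0.072). In air 5 of the 15 fell and 0 rose, with a median of -0.17. Mmp14 fell there by -0.48 ± 0.048 (adjusted p = 6.48e-09) and Adamts2 by -0.80 ± 0.07 (adjusted p = 5.55e-10). In exposed lungs the macrophage elastase Mmp12 had 2.76 to 4.88 CPM with a median of 3.60 at day 27 and 2.02 to 5.66 CPM with a median of 3.96 at day 7 (-0.08 ± 0.19, adjusted p = 0.824). The inhibitor Timp1 had 24.4 to 34.2 CPM with a median of 30.2 and 26.997 to 34.6 CPM with a median of 28.8 (-0.004 ± 0.082, adjusted p = 0.981). Both sets of ranges overlapped almost fully. Adamts17, a secreted metalloprotease that no list held, was at 12.2 to 22.4 CPM with a median of 15.7 at day 27, against 32.6 to 46.4 CPM with a median of 37.4 at day 7 (-1.27 ± 0.12, adjusted p = 1.86e-08), without overlap, and changed by -1.28 ± 0.12 in air. Counts of calls in the collagen, elastic fibre and basement membrane lists were 13, 7 and 9 with the ribosomal protein level as a covariate.

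**Figure D2:**
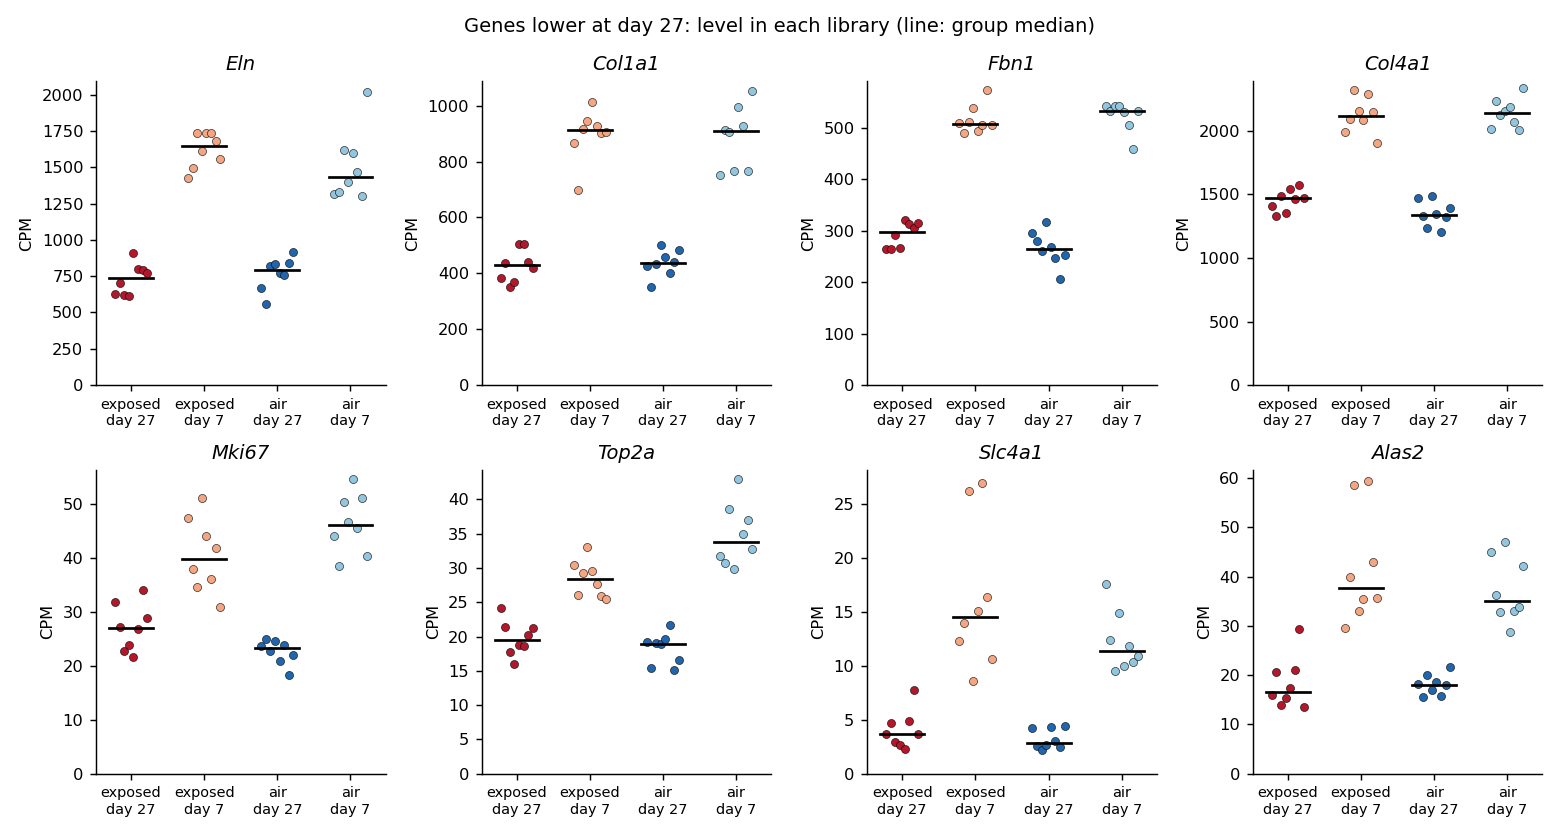
Level in CPM of Eln, Col1a1, Fbn1, Col4a1, Mki67, Top2a, Slc4a1 and Alas2, 1 point per library and a line at the median, for exposed day 27, exposed day 7, air day 27 and air day 7. In each panel the day 27 medians lie below the day 7 medians in exposed and in air lungs, and the exposed days overlap in the Mki67 panel.

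Fibroblast markers did not move as 1 block. Of 14 tested 3 rose and 4 fell in exposed lungs, and their summed level was 2885 to 3071 CPM at day 27, against 2807 to 3155 CPM at day 7. Inmt, a methyltransferase of alveolar fibroblasts, rose to 83.3 to 140.9 CPM with a median of 120.1 at day 27, against 25.8 to 55.6 CPM with a median of 44.1 at day 7, a log2 fold change of 1.41 ± 0.18 (adjusted p = 3.21e-06) without overlap of the groups. In air Inmt rose as well, to 74.8 to 143.9 CPM with a median of 107.8 at day 27, against 26.7 to 73.3 CPM with a median of 47.3 at day 7. Pdgfra (0.24 ± 0.066), the receptor that marks alveolar fibroblasts, and the carboxylesterase Ces1d (0.30 ± 0.097) rose, while the collagen-binding proteoglycan Lum (-0.61 ± 0.082, adjusted p = 4.9e-06), the pericyte receptor Pdgfrb (-0.32 ± 0.052), Itga8 (-0.24 ± 0.06) and its ligand Npnt (-0.24 ± 0.06) fell. Dcn, a proteoglycan that most fibroblasts carry, did not pass (-0.0027 ± 0.13, adjusted p = 0.991).

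Contractile genes of smooth muscle fell, 8 of 10 in exposed lungs and 8 of 10 in air, with none higher and a median of -0.38 in exposed lungs. Smtn (smoothelin), a protein of contractile cells, was at 38.2 to 44.2 CPM with a median of 39.8 at day 27, against 48.8 to 58.4 CPM with a median of 53.001 at day 7 (-0.39 ± 0.05, adjusted p = 2.28e-06). The smooth muscle myosin Myh11 was at 370.5 to 457.8 CPM with a median of 421.5, against 487.7 to 640.1 CPM with a median of 567.04 (-0.44 ± 0.11). The kinase Mylk (-0.22 ± 0.044, adjusted p = 0.00126) and the actin Acta2 (-0.37 ± 0.1) also fell, and the groups were separate for each of these 4 genes. The summed level of the list was 1824 to 2117 CPM at day 27, against 2294 to 2719 CPM at day 7. With the ribosomal protein level as a covariate 1 of the 10 was called, at a median of -0.16.

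Transcripts of cell division were lower at day 27. Of 29 cell cycle genes 19 fell and 0 rose in exposed lungs, with a median of -0.46, and 22 fell in air, with a median of -0.53. Top2a, the topoisomerase that untangles replicated chromosomes, was at 15.99 to 24.1 CPM with a median of 19.5 in exposed lungs at day 27, against 25.4 to 33.1 CPM with a median of 28.5 at day 7 (-0.52 ± 0.084, adjusted p = 7.52e-05), with separate groups. Mki67, which coats mitotic chromosomes, was at 21.6 to 34.1 CPM with a median of 27.03, against 30.9 to 51.2 CPM with a median of 39.9 (-0.58 ± 0.096, adjusted p = 0.000133), with the highest day 27 library above the lowest day 7 libraries. In air the falls were -0.94 ± 0.084 for Top2a and -1.03 ± 0.097 for Mki67, and the differences between the exposed and the air change did not pass (adjusted p = 0.136 and 0.146). The kinetochore proteins Cenpe (-0.59 ± 0.12) and Cenpf (-0.62 ± 0.11), the checkpoint kinase Bub1 (-0.57 ± 0.11), Cdk1 (-0.50 ± 0.10), its cyclin Ccnb1 (-0.40 ± 0.13) and Cdc20, which starts anaphase (-0.45 ± 0.13), fell. The replication genes Mcm2 (-0.063 ± 0.065), Mcm3 (-0.074 ± 0.084), Mcm5 (-0.18 ± 0.092), Mcm6 (0.028 ± 0.066) and Pcna (0.087 ± 0.059) did not pass, with adjusted p of 0.194 to 0.82, nor did 5 others of the list, among them the mitotic kinase Aurkb (-1.20 ± 0.59, adjusted p = 0.181). Outside the list, the mitotic regulator Fam64a (-1.55 ± 0.28, adjusted p = 0.000428) and Anln, the cytokinesis protein anillin (-1.12 ± 0.19, adjusted p = 0.000154), were among the 15 largest falls. With the ribosomal protein level as a covariate 14 of the 29 were called.

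Promoters of mitotic genes are known for CCAAT boxes, bound by NF-Y, and for the cell cycle homology region, TTTGAA, bound by repressor complexes in resting cells. The 150 bases before the annotated start of 4 of the genes that fell are shown because they carry both kinds of letters or, in Ccnb1, a pair of CCAAT boxes. They are RefSeq sequences of build GRCr8, read on the minus strand, 5′ to 3′, with CCAAT (or ATTGG on the other strand) and TTTGAA (or TTCAAA) in capitals. Top2a is at chr10:84473094-84473243, Mki67 at chr1:199952594-199952743, Ccnb1 at chr2:33655226-33655375 and Cdc20 at chr5:137255800-137255949.
Top2a: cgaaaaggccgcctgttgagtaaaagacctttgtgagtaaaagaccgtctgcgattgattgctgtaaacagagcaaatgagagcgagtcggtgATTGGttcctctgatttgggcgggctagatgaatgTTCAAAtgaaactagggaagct
Mki67: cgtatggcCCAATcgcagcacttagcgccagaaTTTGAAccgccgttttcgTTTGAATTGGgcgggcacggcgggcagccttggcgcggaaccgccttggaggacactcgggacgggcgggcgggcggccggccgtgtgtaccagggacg
Ccnb1: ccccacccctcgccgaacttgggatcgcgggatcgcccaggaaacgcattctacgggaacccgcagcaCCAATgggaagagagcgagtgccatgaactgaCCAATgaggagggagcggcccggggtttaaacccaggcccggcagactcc
Cdc20: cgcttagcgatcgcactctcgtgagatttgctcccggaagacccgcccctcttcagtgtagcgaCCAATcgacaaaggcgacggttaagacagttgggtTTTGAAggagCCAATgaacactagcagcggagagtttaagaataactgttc
The CCAAT letters begin 57 bases upstream of the start in Top2a, 142 and 94 in Mki67, 82 and 50 in Ccnb1 and 86 and 41 in Cdc20. The TTTGAA letters begin 22 bases upstream in Top2a, 117 and 99 in Mki67 and 51 in Cdc20, and the second of those in Mki67 shares 1 base with the CCAAT box beside it. Over the 250 bases upstream, on both strands, CCAAT was found in 18 of the 24 cell cycle genes whose promoter matched by symbol (75.0%), and in 12 of the 15 matched genes that fell (80.0%), against 34.3% of all 27457 promoters. TTTGAA was found in 8 of the 24 (33.3%), against 16.03% of all promoters. In the collagen list CCAAT was found in 1 of 14 matched promoters (7.14%), in the elastic fibre list in 2 of 8 (25.0%) and in the basement membrane list in 4 of 13 (30.8%). A match is a run of letters and does not show that a factor binds.

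Genes of the growth hormone and insulin-like growth factor axis, which drives body growth in young animals, fell in part. Of 13 tested 4 fell and 0 rose in exposed lungs. The growth factor Igf1 was at 35.97 to 60.9 CPM with a median of 46.1 at day 27, against 60.8 to 77.8 CPM with a median of 67.03 at day 7 (-0.49 ± 0.10, adjusted p = 0.0018). The clearance receptor Igf2r was at 240.7 to 291.1 CPM with a median of 272.4, against 306.4 to 358.5 CPM with a median of 319.98 (-0.26 ± 0.044, adjusted p = 0.000119). Igfbp4 (-0.21 ± 0.06) and the signal transducer Stat5b (-0.16 ± 0.052) also fell. In air Igf1 changed by -0.79 ± 0.10, and 4 genes of the axis fell and 1 rose. Under the ribosomal covariate Igf1 changed by -0.31 in exposed lungs (adjusted p = 0.151).

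Red blood cell transcripts fell as well. All 5 tested of 8 listed fell in exposed lungs, with a median of -1.12, and 4 of 5 fell in air, with a median of -0.80. Slc4a1, the anion exchanger of the red cell membrane, was at 2.33 to 7.75 CPM with a median of 3.68 at day 27, against 8.56 to 26.9 CPM with a median of 14.5 at day 7 (-1.98 ± 0.23, adjusted p = 8.15e-07). Alas2, which starts haem synthesis in red cell precursors, was at 13.6 to 29.4 CPM with a median of 16.6, against 29.5 to 59.4 CPM with a median of 37.7 (-1.18 ± 0.15, adjusted p = 2.99e-06). The globin Hbb was at 718.2 to 1305 CPM with a median of 1023, against 1459.8 to 2626 CPM with a median of 1824 (-0.95 ± 0.12). These 3 genes had separate day 27 and day 7 groups in exposed and in air lungs, although Alas2 in exposed library FSDE_FSDE_295_27 came within 1 CPM of the day 7 range. Globin genes are near-identical copies, so counts of Hbb may be split between them. Epb42, a membrane skeleton protein (-1.12 ± 0.27), the globin chaperone Ahsp (-0.94 ± 0.31, adjusted p = 0.0409) and, outside the list, the red cell precursor protein Hemgn (-1.18 ± 0.26) fell, at levels of a few CPM. With libraries FSDE_FSDE_275_07 and FSDE_FSDE_278_07 summed 4 of the 5 were called.

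Of 11 type 1 cell markers 6 rose and 0 fell in exposed lungs (5 rose and 1 fell in air), and of 15 surfactant and type 2 cell genes 5 rose and 0 fell (6 rose in air). The water channel Aqp5 was at 459.7 to 552.2 CPM with a median of 503.1 at day 27, against 371.9 to 451.8 CPM with a median of 421.3 at day 7 (0.28 ± 0.06, adjusted p = 0.00265). Pdpn, a membrane protein of type 1 cells, was at 637.2 to 790.1 CPM with a median of 679.4, against 546.7 to 662.2 CPM with a median of 617.6 (0.18 ± 0.049, adjusted p = 0.0162). The exposed groups were separate for Aqp5 and overlapped for Pdpn. Among surfactant genes Sftpc (0.26 ± 0.055, adjusted p = 0.00236), Sftpa1 (0.32 ± 0.07, adjusted p = 0.00302) and Sftpd (0.30 ± 0.098) rose, whereas Sftpb (0.13 ± 0.074, adjusted p = 0.237) and the lipid transporter Abca3 (0.0023 ± 0.055, adjusted p = 0.984) did not pass. Summed, the surfactant list stood at 37255 to 42910 CPM at day 27, against 28572 to 38612 CPM at day 7. With the ribosomal protein level as a covariate 4 type 1 genes and 1 type 2 gene were called, and without exposed day 27 library FSDE_FSDE_290_27, 4 and 3.

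Of 11 club and secretory genes, Cyp2b1, a cytochrome P450 of club cells, alone rose in exposed lungs, at 821.4 to 1006 CPM with a median of 857.8 at day 27, against 516.1 to 763.5 CPM with a median of 643.1 at day 7 (0.45 ± 0.096, adjusted p = 0.00256). In air 2 of the 11 rose, among them Cyp2b1 (0.31 ± 0.096, adjusted p = 0.0102). Over all genes tested 6.1% rose in exposed lungs and 19.8% in air. In exposed lungs the secretoglobin Scgb1a1 had 3382 to 8610.4 CPM with a median of 7798 and 4661 to 7049.7 CPM with a median of 6044 (0.20 ± 0.14, adjusted p = 0.354). Of 16 motile cilia genes 2 fell, the dynein chains Dnah5 (-1.07 ± 0.28, adjusted p = 0.0129) and Dnah11 (-0.41 ± 0.13, adjusted p = 0.0384). Both were highest in exposed day 7 library FSDE_FSDE_273_07, and without it Dnah11 had an adjusted p of 0.0966. With libraries FSDE_FSDE_275_07 and FSDE_FSDE_278_07 summed Dnah11 had an adjusted p of 0.051. Dnah5 changed under the ribosomal covariate by -0.33 (adjusted p = 0.6) and Dnah11 by -0.12 (adjusted p = 0.722). In air, without that covariate, 5 cilia genes fell and 1 rose. Dnah5 fell there by -1.31 ± 0.29 (adjusted p = 0.000653) and Dnah11 by -0.51 ± 0.13 (adjusted p = 0.00305). Of 6 mesothelial markers the keratin Krt19, which airway epithelium also carries, alone rose in exposed lungs (0.33 ± 0.085, adjusted p = 0.0104), and the mesothelial Msln had a log2 fold change of -0.64 ± 0.25 (adjusted p = 0.0858). In air Krt19 rose by 0.32 ± 0.085 (adjusted p = 0.00387) and Msln changed by 0.15 ± 0.25 (adjusted p = 0.668). In exposed lungs none of 3 fat cell markers passed, among them Cfd (0.19 ± 0.14) and Lipe (0.05 ± 0.074).

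Endothelial genes split by gene. Of 14 pan-endothelial markers 3 rose and 2 fell in exposed lungs, and their summed level was 7517 to 8299 CPM at day 27, against 7535 to 7884 CPM at day 7. Over all genes tested 6.1% rose and 5.78% fell in exposed lungs. In air 3 of the 14 rose and 3 fell. Tek, the angiopoietin receptor, was at 729.3 to 908.7 CPM with a median of 772.6 in exposed lungs at day 27, against 628.7 to 733.02 CPM with a median of 657.3 at day 7 (0.25 ± 0.054, adjusted p = 0.00245). Its partner receptor Tie1 was at 273.7 to 326.1 CPM with a median of 304.8, against 304.8 to 359.2 CPM with a median of 330.6 (-0.16 ± 0.037, adjusted p = 0.00407). The exposed ranges overlapped for both genes. In air Tek changed by -0.01 ± 0.054 (adjusted p = 0.899) and Tie1 by 0.038 ± 0.037 (adjusted p = 0.437), and the differences between exposed and air changes did not pass, with adjusted p of 0.137 and 0.136. Ramp2, the adrenomedullin co-receptor (0.22 ± 0.052), and the transcription factor Erg (0.16 ± 0.05) rose, and the junction protein Cdh5 (-0.16 ± 0.041) fell. Among 10 capillary genes the carbonic anhydrase Car4 (0.19 ± 0.058, adjusted p = 0.0334) alone passed in exposed lungs. Its adjusted p was 0.0541 with libraries FSDE_FSDE_275_07 and FSDE_FSDE_278_07 summed, and it missed the threshold in 8 of 32 fits without 1 library. In air Car4 rose by 0.22 ± 0.058 (adjusted p = 0.00381), and 3 of the 10 capillary genes rose and 2 fell. Esm1, a proteoglycan of sprouting endothelium, was among the 15 largest rises in exposed lungs, at 62.2 to 211.3 CPM with a median of 117.2 at day 27, against 57.8 to 96.7 CPM with a median of 64.99 at day 7 (0.88 ± 0.21, adjusted p = 0.00775), and rose by 0.92 ± 0.22 in air.

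Immunoglobulin transcripts were among the largest rises. The joining chain Igj, which links secreted IgA and IgM, was at 58.1 to 119.5 CPM with a median of 85.8 in exposed lungs at day 27, against 20.9 to 47.1 CPM with a median of 43.01 at day 7 (1.18 ± 0.28, adjusted p = 0.00606), with separate groups.  The kappa light chain Igkc was at 339.4 to 731.5 CPM with a median of 596.1 in exposed lungs at day 27, against 137.1 to 343.7 CPM with a median of 277.99 at day 7 (1.14 ± 0.29, adjusted p = 0.00992), and the ranges overlapped at their edge. The heavy chain gene Igh-1a (1.78 ± 0.48, adjusted p = 0.0148) and the variable segment Igkv5-48 (2.29 ± 0.56, adjusted p = 0.00765) rose too. In air the log2 fold changes were 0.35 ± 0.27 for Igj (adjusted p = 0.325), 0.70 ± 0.28 for Igkc (0.0515), 1.12 ± 0.47 for Igh-1a (0.0565) and 0.43 ± 0.54 for Igkv5-48 (0.565). The differences between the exposed and the air change did not pass, with adjusted p of 0.262 to 0.65. Immunoglobulin genes share near-identical stretches, so their counts may be split among copies. The B cell receptor subunit Cd79a did not pass in exposed lungs, with a log2 fold change of 0.13 ± 0.17 (adjusted p = 0.658), against 0.85 ± 0.17 in air, where it was called. Of 15 B and plasma cell genes 1 rose in exposed lungs, Igkc, and 8 rose in air, at medians of 0.07 and 0.70. The smallest adjusted p for a difference of the 2 changes in that list was 0.136. Igj, Igkc, Igh-1a and Igkv5-48 had adjusted p of 0.255, 0.446, 0.409 and 0.305 with the ribosomal protein level as a covariate.

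Of 13 MHC class II and dendritic cell genes 3 rose and 0 fell in exposed lungs, with a median of 0.28, and 9 rose in air. The class II chain RT1-Db1 was at 272.5 to 340.2 CPM with a median of 306.7 at day 27, against 226.3 to 286.2 CPM with a median of 241.97 at day 7 (0.29 ± 0.065, adjusted p = 0.00338). Xcr1, the chemokine receptor of cross-presenting dendritic cells, was at 3.12 to 4.97 CPM with a median of 3.66, against 1.69 to 3.25 CPM with a median of 2.52 (0.56 ± 0.13, adjusted p = 0.00499). Of 14 T cell genes 1 rose in exposed lungs, near the 6.1% of all genes tested that rose. It was the adhesion receptor Cd2 (0.52 ± 0.13, adjusted p = 0.00717), and Lef1, a factor of T cells that have not met antigen, had -0.29 ± 0.10 (adjusted p = 0.0664). Of 11 NK and cytotoxic genes 2 rose, the granule proteases Gzma (0.49 ± 0.14, adjusted p = 0.0239) and Gzmk (0.42 ± 0.12, adjusted p = 0.0194). In air 5 of the T cell genes and 3 of the NK genes rose, against 19.8% of all genes tested. Cd2 rose in air (0.61 ± 0.13, adjusted p = 0.000432), while Gzma (0.31 ± 0.14, adjusted p = 0.0805) and Gzmk (0.28 ± 0.12, adjusted p = 0.0571) did not pass there. In exposed lungs Gzma had adjusted p of 0.0513 without exposed day 7 library FSDE_FSDE_274_07 and 0.0533 without exposed day 27 library FSDE_FSDE_290_27. With the ribosomal protein level as a covariate none of these MHC class II, T cell or NK genes was called.

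**Figure D3:**
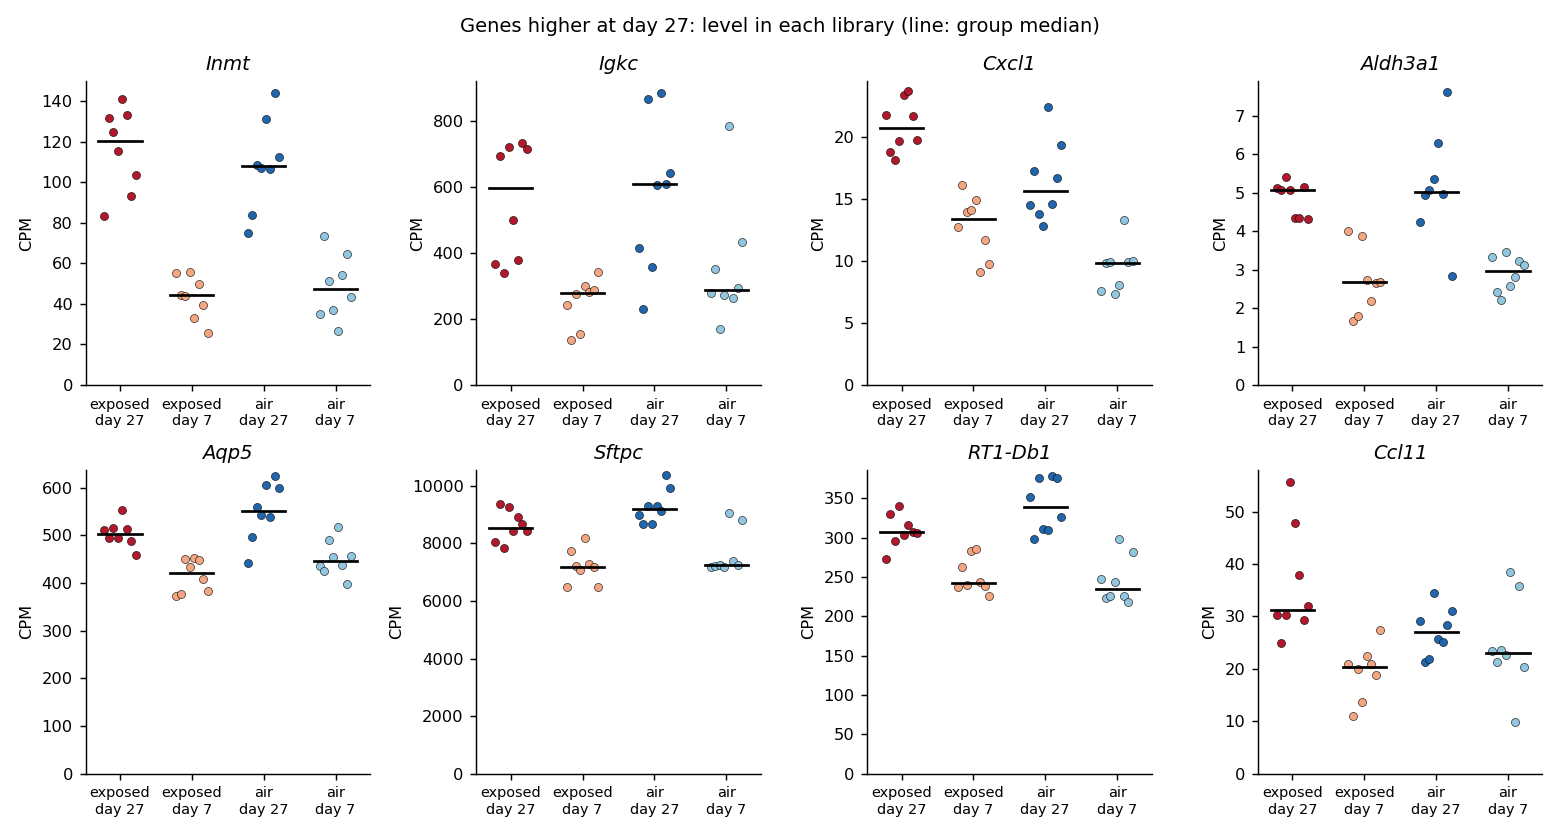
Level in CPM of Inmt, Igkc, Cxcl1, Aldh3a1, Aqp5, Sftpc, RT1-Db1 and Ccl11, 1 point per library and a line at the median, for exposed day 27, exposed day 7, air day 27 and air day 7. The exposed days are separate for Inmt, Cxcl1, Aldh3a1 and Aqp5, and overlap for Igkc, Sftpc, RT1-Db1 and Ccl11.

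In exposed lungs none of 11 neutrophil genes passed, 10 of them below 0 with a median of -0.41, and the summed level of the list was 120 to 319 CPM at day 27, against 163 to 454 CPM at day 7. The granule protein Ngp had a log2 fold change of -1.04 ± 0.49 (adjusted p = 0.158), the collagenase Mmp8 of -0.57 ± 0.24 and S100a8 of -0.51 ± 0.32. With the ribosomal protein level as a covariate 6 of the 11 were called lower. In air, without that covariate, 1 of the 11 rose, 6 were above 0 and the median was 0.21. The smallest adjusted p for a difference of the changes in that list was 0.304. In exposed lungs none of 12 alveolar macrophage genes passed, among them the lipid exporter Abcg1 (0.18 ± 0.065, adjusted p = 0.0577) and the lysosomal Cd68 (0.21 ± 0.10), nor did any of 15 monocyte and interstitial macrophage genes, among them Lyve1 (0.14 ± 0.087). In air 3 alveolar macrophage genes rose and 2 fell, and 1 monocyte and interstitial macrophage gene rose and 2 fell. Of 14 genes of lipid-loaded macrophages 2 rose, Lgals3 (0.29 ± 0.083, adjusted p = 0.0193) and Apoe (0.28 ± 0.079, adjusted p = 0.0198), against 8 in air. None of 10 mast cell and basophil genes passed, with a median of -0.14 in exposed lungs and 0.59 in air, where 4 rose. The protease Mcpt8 had -0.50 ± 0.21 in exposed lungs (adjusted p = 0.125) and 0.60 ± 0.21 in air (adjusted p = 0.0216).

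Chemokine and adhesion genes that passed in exposed lungs were higher at day 27. Of 17 cytokine, chemokine and NF-kB feedback genes 3 rose and 0 fell in exposed lungs, with a median of 0.10. In air 5 rose and 1 fell, with a median of 0.56. The neutrophil attractant Cxcl1 was at 18.1 to 23.7 CPM with a median of 20.7 at day 27, against 9.12 to 16.1 CPM with a median of 13.4 at day 7 (0.70 ± 0.12, adjusted p = 0.00015), with separate groups. Air lungs had 12.8 to 22.5 CPM with a median of 15.6 at day 27, against 7.37 to 13.3 CPM with a median of 9.85 at day 7 (0.79 ± 0.12). Icam1, the leukocyte adhesion molecule (0.18 ± 0.049, adjusted p = 0.0166), and Ccl22, a dendritic cell chemokine near 1 CPM (0.89 ± 0.25), rose as well in exposed lungs. In air Icam1 rose by 0.22 ± 0.049 (adjusted p = 0.000809) and Ccl22 did not pass (0.57 ± 0.25, adjusted p = 0.069). Outside the list, the eosinophil attractant Ccl11 was at 24.9 to 55.7 CPM with a median of 31.2 at day 27, against 10.99 to 27.4 CPM with a median of 20.4 at day 7 (0.89 ± 0.20, adjusted p = 0.0044), and its change in air was 0.15 ± 0.20 (adjusted p = 0.596). The difference of those changes did not pass (adjusted p = 0.234). In exposed lungs the monocyte attractant Ccl2 had 2.18 to 4.24 CPM with a median of 2.74 at day 27 and 1.12 to 3.23 CPM with a median of 2.10 at day 7 (0.48 ± 0.21, adjusted p = 0.131). In air Ccl2 rose by 0.79 ± 0.20 (adjusted p = 0.00271), and the difference of its changes did not pass (adjusted p = 0.626). Of 21 interferon-stimulated genes Rsad2 alone fell in exposed lungs (-0.60 ± 0.17, adjusted p = 0.0232), with 17 below 0, near the 5.78% of all genes tested that fell. Rsad2 had adjusted p of 0.0602 without exposed day 7 library FSDE_FSDE_278_07 and 0.0518 without exposed day 27 library FSDE_FSDE_289_27. In air 2 of the 21 rose and 1 fell, Rsad2 (-0.45 ± 0.18, adjusted p = 0.04). Of 11 secreted innate defence genes the antibody transporter Pigr alone rose in exposed lungs (0.24 ± 0.079, adjusted p = 0.0458), where 6.1% of all genes tested rose. It missed the threshold in 20 of 32 fits without 1 library and had an adjusted p of 0.0712 with libraries FSDE_FSDE_275_07 and FSDE_FSDE_278_07 summed. Lcn2, the iron-binding defence protein, had 74.9 to 296.9 CPM with a median of 176.1 at day 27 and 44.5 to 254.1 CPM with a median of 116.1 at day 7 (0.36 ± 0.29, adjusted p = 0.44).

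Targets of the aryl hydrocarbon receptor went in both directions. Cyp1a1, an enzyme strongly induced by soot hydrocarbons, fell to 1.79 to 12.9 CPM with a median of 3.35 in exposed lungs at day 27, against 4.27 to 37.8 CPM with a median of 18.02 at day 7, a log2 fold change of -2.05 ± 0.48 (adjusted p = 0.00574). The ranges overlapped, with library FSDE_FSDE_289_27 the highest at day 27. In air the gene stood at 0.791 to 15.4 CPM with a median of 5.76 at day 27, against 10.7 to 22.8 CPM with a median of 14.1 at day 7 (-0.98 ± 0.46, adjusted p = 0.0917). Exposed and air changes of Cyp1a1 were not told apart (adjusted p = 0.442). Aldh3a1, an aldehyde dehydrogenase that the receptor also induces, rose to 4.33 to 5.42 CPM with a median of 5.07, against 1.65 to 4.02 CPM with a median of 2.67 (0.84 ± 0.17, adjusted p = 0.00116), and by 0.84 ± 0.17 in air. Nqo1, a quinone reductase counted under this receptor, rose by a small amount (0.20 ± 0.059, adjusted p = 0.0256). It missed the threshold in 6 of 32 fits without 1 library, and in air it rose by 0.22 ± 0.058 (adjusted p = 0.0032). In exposed lungs 2 of the 5 targets tested rose and 1 fell, as in air. Cyp1b1 (-0.18 ± 0.14) and Tiparp (-0.095 ± 0.073) did not pass in exposed lungs.

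Of 13 NRF2 targets 5 rose and 0 fell in exposed lungs, and 5 rose and 1 fell in air. The ferritin heavy chain Fth1 was at 2291 to 2695 CPM with a median of 2546 at day 27, against 1984 to 2254 CPM with a median of 2055 at day 7 (0.26 ± 0.052, adjusted p = 0.00101), with separate groups. The glutathione transferase Gsta1 was at 143.8 to 201.96 CPM with a median of 173.1, against 104.99 to 144.1 CPM with a median of 139.5 (0.41 ± 0.083, adjusted p = 0.00165). Gstp1 (0.29 ± 0.067), the ferritin light chain Ftl1 (0.21 ± 0.062) and Osgin1 (0.36 ± 0.11) rose. The haem-degrading enzyme Hmox1 had 34.4 to 50.6 CPM with a median of 41.9 and 28.3 to 46.1 CPM with a median of 43.9 (0.069 ± 0.11, adjusted p = 0.736), and the glutathione synthesis genes Gclc (0.13 ± 0.059) and Gclm (-0.06 ± 0.071) did not pass. With the ribosomal protein level as a covariate 1 of the 13 was called, and without exposed day 27 library FSDE_FSDE_290_27, 3. In air Fth1 rose by 0.42 ± 0.052 (adjusted p = 3.76e-07) with separate groups, and Gsta1 did not pass (0.20 ± 0.083, adjusted p = 0.053). Of 10 genes followed as markers of particle exposure, Col1a1 and Cyp1a1 fell and Cxcl1 and Nqo1 rose in exposed lungs. Lcn2, Hmox1, Ccl2, Mmp12, Spp1 and Timp1 did not pass there. In air Col1a1 fell, Cxcl1, Nqo1 and Ccl2 rose, and Cyp1a1, Lcn2, Hmox1, Mmp12, Spp1 and Timp1 did not pass. In exposed lungs Spp1, a matricellular protein of activated macrophages, had 2.79 to 12.7 CPM with a median of 6.20 at day 27 and 4.09 to 10.1 CPM with a median of 6.42 at day 7 (0.13 ± 0.28, adjusted p = 0.806).

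**Figure D4:**
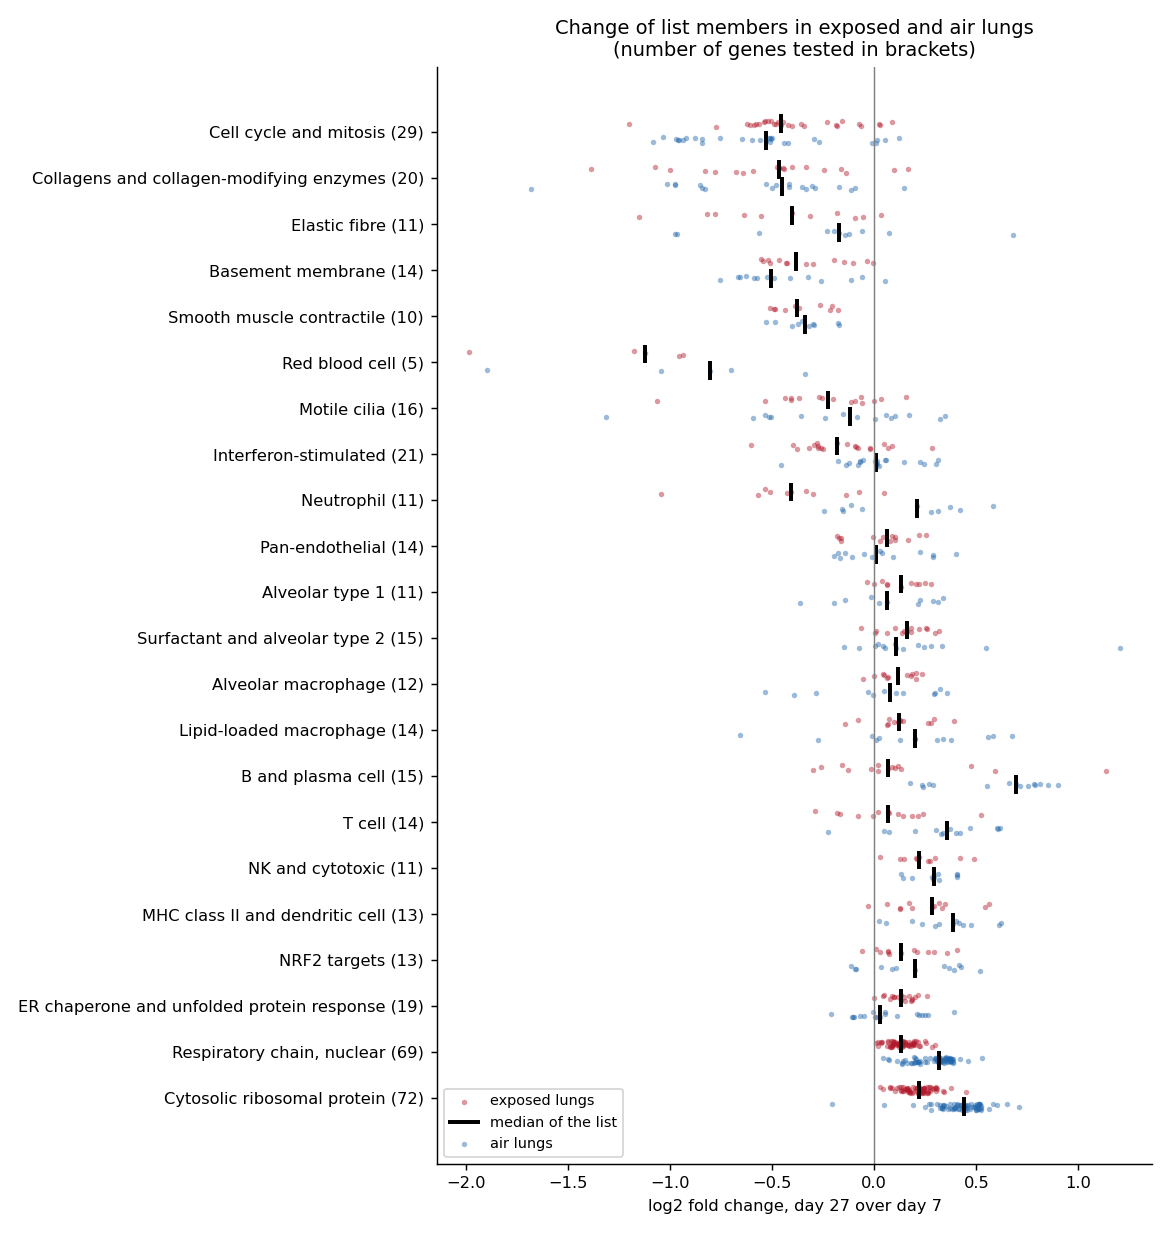
Log2 fold change of day 27 over day 7 for each tested member of 22 gene lists, with exposed lungs above air lungs in each list. Most cell cycle, matrix, smooth muscle and red blood cell members lie left of 0 in both, and most ribosomal protein and nuclear respiratory chain members lie right of 0, with medians of 0.22 and 0.13 in exposed lungs and of 0.44 and 0.32 in air.

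Of 17 clock genes 2 rose in exposed lungs, where 6.1% of all genes tested rose. Among them was the repressor Cry2 (0.21 ± 0.059, adjusted p = 0.0186, or 0.0517 without exposed day 7 library FSDE_FSDE_276_07). In air 0 of the 17 rose and 3 fell, and Cry2 did not pass (0.083 ± 0.059, adjusted p = 0.278). In exposed lungs the clock output gene Dbp had -0.0032 ± 0.19 (adjusted p = 0.993) and the repressor Nr1d1 -0.50 ± 0.59 (adjusted p = 0.624). Of 13 glucocorticoid-induced genes Klf9 fell (-0.50 ± 0.13, adjusted p = 0.01) and Zbtb16 was called higher (1.22 ± 0.41, adjusted p = 0.047). These calls are near the 5.78% of all genes tested that fell and the 6.1% that rose, and in air 0 of the 13 were called. Library FSDE_FSDE_292_27 held 91.2 CPM of Zbtb16, against 5.99 to 41.3 CPM in the other day 27 libraries, and without it Zbtb16 had a log2 fold change of 0.52 (adjusted p = 0.279). The gene missed the threshold in 23 of 32 fits without 1 library. In exposed lungs none of 15 immediate early genes passed, among them Fosb (1.08 ± 0.38, adjusted p = 0.059) and Egr2 (0.43 ± 0.16). None of 13 heat shock genes passed, such as Hspa1a (-1.54 ± 0.66) and Hspa4l (-0.24 ± 0.19), and none of 10 genes of the p53 response. In air 4 of the 15 immediate early genes rose and 1 fell, and 1 of the 13 heat shock genes rose and 1 fell. Of the 10 p53 response genes 3 rose in air and 1 fell. Of 19 endoplasmic reticulum chaperone and unfolded protein genes 3 rose in exposed lungs, where 6.1% of all genes tested rose. These were the stress transcription factor Atf4 (0.19 ± 0.05), the disulphide isomerase Pdia3 (0.15 ± 0.041) and the chaperone Hsp90b1 (0.17 ± 0.057). In air 4 of the 19 rose and 2 fell. Atf4 rose there by 0.22 ± 0.05 (adjusted p = 0.000828) and Pdia3 did not pass (0.028 ± 0.041, adjusted p = 0.622). In exposed lungs the fatty acid elongase Elovl6 alone fell (-0.61 ± 0.18, adjusted p = 0.025) of 19 cholesterol and fatty acid synthesis genes. Elovl6 has 2 identifiers under its name and missed the threshold in 4 of 32 fits without 1 library. The median of the 19 genes was -0.12 in exposed lungs. In air 16 of these 19 fell, at a median of -0.37, and the smallest adjusted p for a difference of the changes in the list was 0.136. In exposed lungs none of 9 cardiac and pulmonary vein muscle genes and none of 5 skeletal muscle genes passed. In air 0 of the 9 cardiac genes were called, and 4 of the 5 skeletal muscle genes fell. The summed level of the skeletal muscle list ran from 4.76 to 496.6 CPM in air at day 7, against 4.56 to 20.6 CPM at day 27.

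Genes of the protein synthesis machinery rose together by small steps. Of 72 cytosolic ribosomal protein genes 45 rose and 0 fell in exposed lungs, with a median of 0.22, and 68 rose in air, with a median of 0.44. Rpl19 was at 686.3 to 820.05 CPM with a median of 709.8 in exposed lungs at day 27, against 560.9 to 622.95 CPM with a median of 589.6 at day 7 (0.30 ± 0.045, adjusted p = 2.42e-05), with separate groups. Rpl23a was at 388.8 to 433.1 CPM with a median of 415.3, against 305.9 to 397.5 CPM with a median of 331.7 (0.30 ± 0.049, adjusted p = 9.89e-05). Ribosomal protein genes have many near-identical pseudogenes, so their counts may be split. Rpl35a, among the 15 largest rises (0.74 ± 0.14, adjusted p = 0.0005), is 1 of 5 identifiers with that name and its value is uncertain. Of 69 respiratory chain subunits encoded in the nucleus 24 rose and 0 fell, with a median of 0.13, against 64 in air, with a median of 0.32. The succinate dehydrogenase subunit Sdha was at 179.8 to 191.1 CPM with a median of 182.8, against 156.7 to 167.4 CPM with a median of 161.1 (0.19 ± 0.027, adjusted p = 1.99e-05). The ATP synthase subunit Atp5j was at 82.2 to 96.4 CPM with a median of 92.2, against 74.7 to 82.2 CPM with a median of 78.5 (0.21 ± 0.035, adjusted p = 0.000117). Without exposed day 27 library FSDE_FSDE_290_27 the count of nuclear subunits was 13, and with libraries FSDE_FSDE_275_07 and FSDE_FSDE_278_07 both left out it was 12. Of 13 subunits encoded in the mitochondrial genome 0 passed in exposed lungs, with a median of 0.02. In air 4 of the 13 fell and 1 rose, with a median of -0.165. The smallest adjusted p for a difference of the changes in that list was 0.224.

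**Figure D5:**
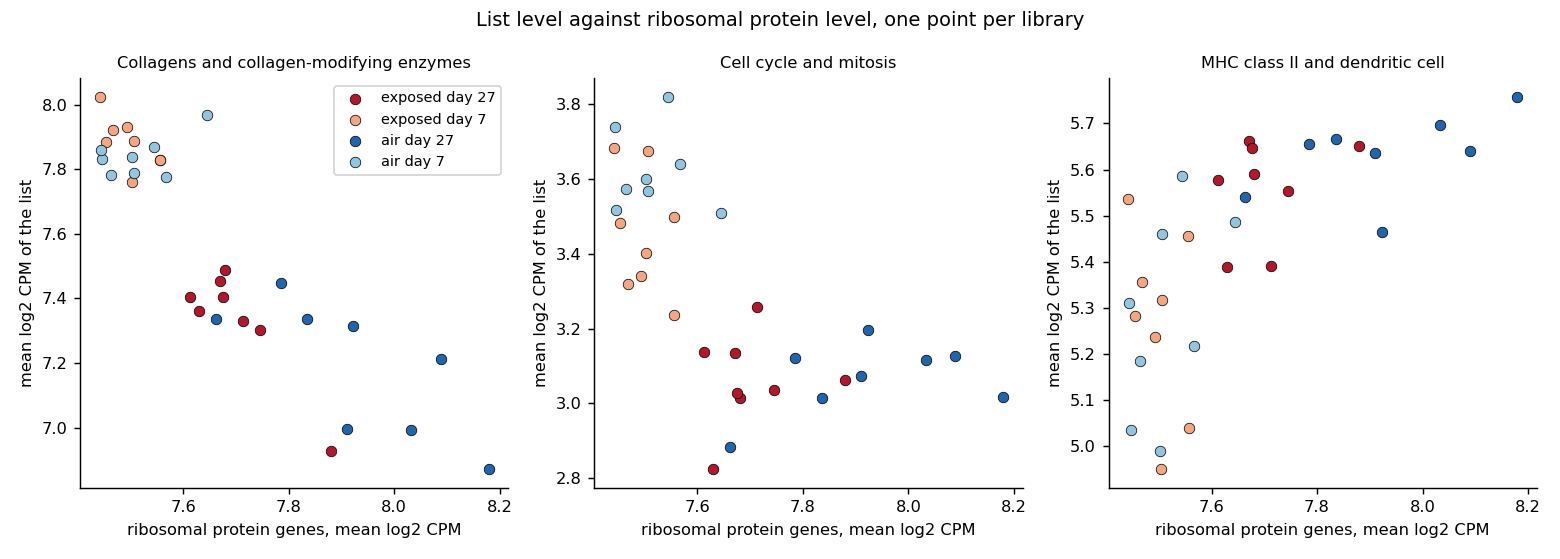
Mean log2 CPM of the collagen, cell cycle and MHC class II lists against that of the cytosolic ribosomal protein genes, 1 point per library, for exposed day 27, exposed day 7, air day 27 and air day 7. The exposed ribosomal levels run from 7.61 to 7.88 at day 27, against 7.44 to 7.56 at day 7, and the collagen levels from 6.93 to 7.49, against 7.76 to 8.02, with exposed day 27 library FSDE_FSDE_290_27 at the highest ribosomal and the lowest collagen level of its group.

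Several of the largest changes fell outside the lists. The sodium channel subunit Scn3b was at 67.8 to 174.6 CPM with a median of 110.9 in exposed lungs at day 27, against 208.9 to 345.1 CPM with a median of 263.3 at day 7 (-1.20 ± 0.18, adjusted p = 5.24e-05), with separate groups. Pi15, a secreted peptidase inhibitor, was at 0.922 to 4.88 CPM with a median of 2.54, against 4.76 to 8.03 CPM with a median of 6.50 (-1.25 ± 0.23, adjusted p = 0.000377). Both also fell in air, with log2 fold changes of -0.93 ± 0.18 and -1.43 ± 0.23. Vwa5a was at 2.43 to 6.87 CPM with a median of 5.72 at day 27, against 6.03 to 23.5 CPM with a median of 12.3 at day 7 (-1.33 ± 0.32, adjusted p = 0.00631), whereas its air change was 0.37 ± 0.33 (adjusted p = 0.394, and 0.136 for the difference). It is 1 of 2 identifiers of that name. The keratin Krt23 (0.97 ± 0.27), the somatostatin receptor Sstr1 (0.72 ± 0.17), the secreted neurexin ligand Nxph3 (0.74 ± 0.22, with an adjusted p of 0.0512 without exposed day 27 library FSDE_FSDE_294_27) and the flavin monooxygenase Fmo6 (0.74 ± 0.23) rose, at medians of about 1 to 4 CPM. Fmo6 had an adjusted p of 0.058 with libraries FSDE_FSDE_275_07 and FSDE_FSDE_278_07 summed and missed the threshold in 10 of 32 fits without 1 library. The transcriptional repressor Zbtb20 fell (-1.10 ± 0.36, adjusted p = 0.0407), and missed it in 10. Under the ribosomal covariate Zbtb20 changed by -0.020 (adjusted p = 0.981). In air, without that covariate, Zbtb20 fell by -1.34 ± 0.36 (adjusted p = 0.00449) and Fmo6 rose by 0.66 ± 0.24 (adjusted p = 0.0286). Krt23 (0.35 ± 0.26), Sstr1 (0.27 ± 0.16) and Nxph3 (0.29 ± 0.22) did not pass in air. The small nuclear RNA 7SK, with 422 identifiers, was called lower (-2.04 ± 0.69, adjusted p = 0.0498) with day 7 library FSDE_FSDE_275_07 at 177.5 CPM, against 6.59 to 16.4 CPM in the other 7. Without that library 7SK changed by -0.41 (adjusted p = 0.628), and it had an adjusted p of 0.0945 with libraries FSDE_FSDE_275_07 and FSDE_FSDE_278_07 summed.

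The 5 genes with the smallest p for a difference between the exposed and the air change all had an adjusted p of 0.0619 and so did not pass. Rrbp1, a ribosome receptor of the endoplasmic reticulum, was at 330.5 to 371.1 CPM with a median of 342.2 in exposed lungs at day 27 and 326.4 to 388.2 CPM with a median of 345.3 at day 7 (-0.0074 ± 0.037), while in air it was at 269.5 to 307.2 CPM with a median of 290.1 at day 27, against 317.8 to 370.1 CPM with a median of 347.4 at day 7 (-0.27 ± 0.037). Chodl, a membrane lectin, had 0.41 ± 0.16 in exposed lungs and -0.75 ± 0.16 in air, which are opposite signs. The mitochondrial kinase Pink1 (0.13 ± 0.037 in exposed lungs and 0.40 ± 0.037 in air) and Rpl36 (0.086 ± 0.064 and 0.52 ± 0.064) had the larger change in air, and the initiation factor Eif5b had 0.18 ± 0.039 in exposed lungs and -0.092 ± 0.039 in air.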

How the data were processed

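Lung RNA of 32 rats (exposed day 27, exposed day 7, air day 27 and air day 7, 8 libraries each) was compared, out of 48 libraries. Total RNA from lung pieces was made into stranded poly(A) libraries, per the labels' protocols. The deposited values are expected counts per gene, 1 table per day with 32285 gene identifiers, and 5.58% of them were not whole within a tolerance of 1e-06. The submitters' processing notes name bcl2fastq 2.19, Trim Galore 0.6.7, cutadapt 3.4, STAR 2.6.1d, Salmon 1.10.1 and the build Rnor_6.0, with no role or order.

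The expected counts deposited by the authors were rounded, joined by identifier, filtered with filterByExpr, scaled by TMM factors and fitted with edgeR 4.0.16 (R 4.3.3) in 1 robust quasi-likelihood model of 4 groups, with Benjamini-Hochberg adjustment over all 14631 genes tested and a threshold of 0.05. The contrasts were day 27 against day 7 in exposed lungs, the same in air lungs, and the exposed change minus the air change. SE is the log2 fold change over the root of F. The p-values measure the spread between separately numbered animals. Total counts per exposed library (9445687 to 13572215) limit the precision of genes of a few CPM, and 4671 identifiers share a name with another.

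Named genes were the up to 15 largest rises and 15 largest falls among called genes with a mean of at least 1 CPM over the exposed libraries, a settled symbol and at least 7 of 8 day 27 libraries on the same side of the day 7 mean, then the 2 members of each list with the smallest p, the 5 genes with the smallest p for the difference of changes, and 10 exposure markers. Some genes that this rule names are not reported here. Further list members are named as examples and were chosen after their values were seen. The groups compared and the 43 gene lists (734 genes, 715 with an identifier, 673 tested) were chosen with earlier results of these data known. Promoters are RefSeq sequences of build GRCr8, matched by symbol. The model was tested on simulated counts of 14508 genes. There the exposed contrast recovered 58% of genes changed 1.25-fold, 82% at 1.5-fold and 94% at 2-fold, with 6 unchanged genes called. The difference of changes was recovered for 34% at 1.25-fold, 66% at 1.5-fold and 82% at 2-fold. The simulation drew noise for each gene on its own, changed 50 genes at each fold and held no shift shared by a whole library. Its rates need not hold for these libraries, where 11.9% of genes tested were called in exposed lungs. Alternatives were other size factors and filters, DESeq2 1.42.0, limma-voom (limma 3.58.1), other sets of libraries, close pairs summed, a surrogate variable (sva 3.50.0), the total count or the ribosomal protein level as a covariate, and leaving out each library.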

Additional observations from a re-analysis of the deposited data

Results flagged for a closer look

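Of 244 groups of 8 exposed libraries, 1 for each day and each of 120 named genes, the total count and the ribosomal protein level, 23 held 1 library whose gap to its nearest neighbour exceeded 0.526 of the group's range, and chance alone marks about 1 in 20. Day 27 held 8 of them and day 7 held 15. Library FSDE_FSDE_273_07 gave 8, and libraries FSDE_FSDE_276_07 and FSDE_FSDE_295_27 gave 3 each.

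At day 27, library FSDE_FSDE_289_27 had 12.9 CPM of Cyp1a1, against 1.79 to 6.03 CPM in the other 7, library FSDE_FSDE_294_27 had 1705.0 CPM of Pigr, and library FSDE_FSDE_292_27 had 91.2 CPM of Zbtb16, against 5.99 to 41.3 CPM in the others. Library FSDE_FSDE_295_27 was highest for the red cell genes Slc4a1 (7.75 CPM) and Alas2 (29.4 CPM) and for myoglobin, Mb (6.10 CPM). Library FSDE_FSDE_296_27 had 82.2 CPM of Atp5j and library FSDE_FSDE_291_27 had 74.2 CPM of Pink1.

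At day 7, library FSDE_FSDE_273_07 stood apart for Nxph3 (2.89 CPM), Fmo6 (2.01 CPM), the cilia genes Dnah5 (23.0 CPM) and Dnah11 (60.4 CPM), the heart muscle genes Actc1 (88.9 CPM) and Tnni3 (24.3 CPM), Mb (4.10 CPM) and Rpl23a (397.5 CPM). Library FSDE_FSDE_276_07 stood apart for Esm1 (96.7 CPM), Tek (733 CPM) and Lyve1 (459.6 CPM). Library FSDE_FSDE_275_07 had 177.5 CPM of 7SK, against 6.59 to 16.4 CPM in the others. Library FSDE_FSDE_274_07 was lowest for Col1a1 (696.9 CPM). Library FSDE_FSDE_277_07 had 552.5 CPM of Icam1, and library FSDE_FSDE_279_07 had 2.89 CPM of Acta1.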

How the results depend on the processing

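The count of genes called in exposed lungs was 1739, and 1441 to 2083 with other size factors, filters, tools, sets of libraries, summed pairs, a surrogate variable or the total count as a covariate. It was 1223 with libraries FSDE_FSDE_275_07 and FSDE_FSDE_278_07 both left out and 572 with the ribosomal protein level as a covariate, both chosen after seeing the data, and 1221 to 2078 without 1 library. The air count was 66 with that covariate and 4818 to 6299 without 1 library. The difference of changes gave 147 genes with DESeq2 (72 higher and 75 lower), 3 with all 48 libraries in the fit and 0 to 119 without 1 library. Of 81 named genes called in exposed lungs, 75 remained called with libraries FSDE_FSDE_275_07 and FSDE_FSDE_278_07 summed, 65 with both left out and 37 with the ribosomal covariate.

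With the ribosomal covariate the list medians turned to 0.05278 (club cell), 0.1088 (capillary), -0.3911 (B and plasma cell), -0.08191 (T cell), -0.008263 (secreted innate defence) and 0.1085 (aryl hydrocarbon receptor), and gene changes to -0.0935 (Cfd), -0.04329 (Lipe), -0.148 (Mzb1), 0.788 (Acta1), 0.07313 (Rrbp1), -0.1433 (Rpl36), -0.1307 (Hmox1), 0.173 (Mmp12) and -0.3393 (Spp1). Rpl36 is itself a ribosomal protein gene, so its value under that covariate is not independent of it. With libraries FSDE_FSDE_275_07 and FSDE_FSDE_278_07 left out the B and plasma cell median was -0.01656, with a surrogate variable Timp1 was 0.01207, and with 3 close pairs summed Tek in air was 0.01566. Leaving out 1 library gave -0.1244 to 0.1002 (club cell), -0.03424 to 0.001761 (capillary), -0.006248 to 0.07744 (Lipe), -0.02447 to 0.01247 (Rrbp1), -0.1729 to 0.01729 (Mmp12), -0.05934 to 0.2543 (Spp1), -0.03504 to 0.03146 (Timp1) and -0.05291 to 0.01441 (Tek in air). The cause was not tested.

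No paired analysis was possible because the labels' animal numbers are unique and no number occurs in more than 1 group. The day, the deposited table and the age of the animals cannot be told apart, and the ribosomal protein level does not overlap between the exposed days. Depth limits genes of a few CPM.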
